A study of Mus musculus with 8 samples.

Results

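The Myc and Pvt1 domain was taken as the stretch of mouse chromosome 15 from 61000000 to 63600000 (mm9), 2.6 Mb long, with Myc near 61817000 to 61822000 and Pvt1 after it. Every Rad21 peak that overlapped this stretch in any of the 8 deposited lists was a member, and peaks that overlapped by at least 1 bp were merged into sites. This gave 576 peaks and 259 sites, out of 64772 merged regions in the genome. The choice used position alone. The distance of a site is that of its summit from the nearer end of Myc, whose position is given to about 1 kb, so that distances near the gene are approximate. The first site inside the stretch began at 61107646 and the last before it at 60990784. At the far end, the last site inside ended at 63573788 and the next began at 63601971.

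The study concerns class switch recombination, in which breaks in switch regions of Igh are joined, and the chromatin around it. Rad21 was mapped by ChIP-seq in CH12F3 cells, a mouse B lymphoma line, stimulated for 3 days with IL4, TGF-β and anti-CD40. All 4 genotypes lack AID (AID-/-) and carry an engineered Igh allele with Iγ3 retained. FS_Ca and PS_Ca (Iγ3-FS-Cα and Iγ3-PS-Cα) were made in cells whose non-coding Igh copy lacks everything between VH and the 3' CBEs (binding elements of CTCF). FS_Ia and PS_Ia (Iγ3-FS-Iα and Iγ3-PS-Iα) were made in αInv cells. The FS lines retain full-length Sγ3 and Sα, with Cγ3 to Iα deleted in FS_Ca and Cγ3 to Cα in FS_Ia. The PS lines retain parts of Sγ3 and Sα, with the segment between them deleted. Each genotype had 2 libraries, and whether these came from separate cultures or clones is not stated, so that p-values measure only the spread between these samples. None of the edits lies on chromosome 15. Peak lists hold no expression values, so neither the cell type nor the activity of Myc could be checked in them.

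Rad21 is the kleisin subunit of cohesin, a ring-shaped complex that draws DNA into loops and is stopped where CTCF is bound. Myc encodes a transcription factor that drives growth and division, and activated B cells depend on it. It lies in a gene-poor domain in which its enhancers are spread over long distances, many within or past Pvt1, a long non-coding RNA gene whose promoter is known to compete with that of Myc for these enhancers. A CTCF-bound element just before the Myc promoter is known as a docking point for distal enhancers, and blood cells use an enhancer cluster far past Pvt1. Myc is also the classic partner of Igh in the translocations of B cell tumours. In the GRCm38 gene table, A1bg and Gsdmc are the nearest protein-coding neighbours before Myc and after Pvt1.

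List length ran from 11288 in PS_Ca replicate 2 to 47461 in PS_Ia replicate 2, and peaks were called in each library on its own. The value used per peak is the authors' fold enrichment over background at the summit. Within a list it is used as a level, a rank or a percentile in which 0 is the strongest peak. Folds of different lists are set side by side as a description only, and strength is compared between libraries by rank. The summit height was worked out from the fold on the assumption that this is (height + 1)/(background + 1). Heights are given in fragments, although the settings that decide whether fragments or reads were piled up were not at hand. It was 3 to 5 fragments for the weakest called peak of a list, so that a missing peak was below the threshold and is not shown to be absent.

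The strongest Rad21 site of the domain lay at Myc itself in each of the 8 libraries. As a share of all sites of the domain, however, those held by every library were few. Of all sites, 71.4% were held only by the 3 longest lists, against 49.0% of all regions. Of its 259 sites, 8 (3.09%) were held by all 8 libraries, against 10.4% of all regions of the genome, and 169 (65.3%) by 1 library, against 52.6%. At least 4 libraries held 33 sites (12.7%, against 28.3% of all regions). The 8 shared sites lay 585 kb and 10.2 kb upstream of Myc, at Myc, and 275, 283, 812, 1611 and 1662 kb downstream. Their spacing ran from 8.22 to 799 kb with a median of 282 kb, against a median of 130 kb between neighbouring shared regions in the genome. By number they were not sparse for the length, as the median stretch of 2.6 Mb held 5 shared regions. The map of peaks by library shows the shared sites as the columns of circles that recur from list to list.

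**Figure D1:**
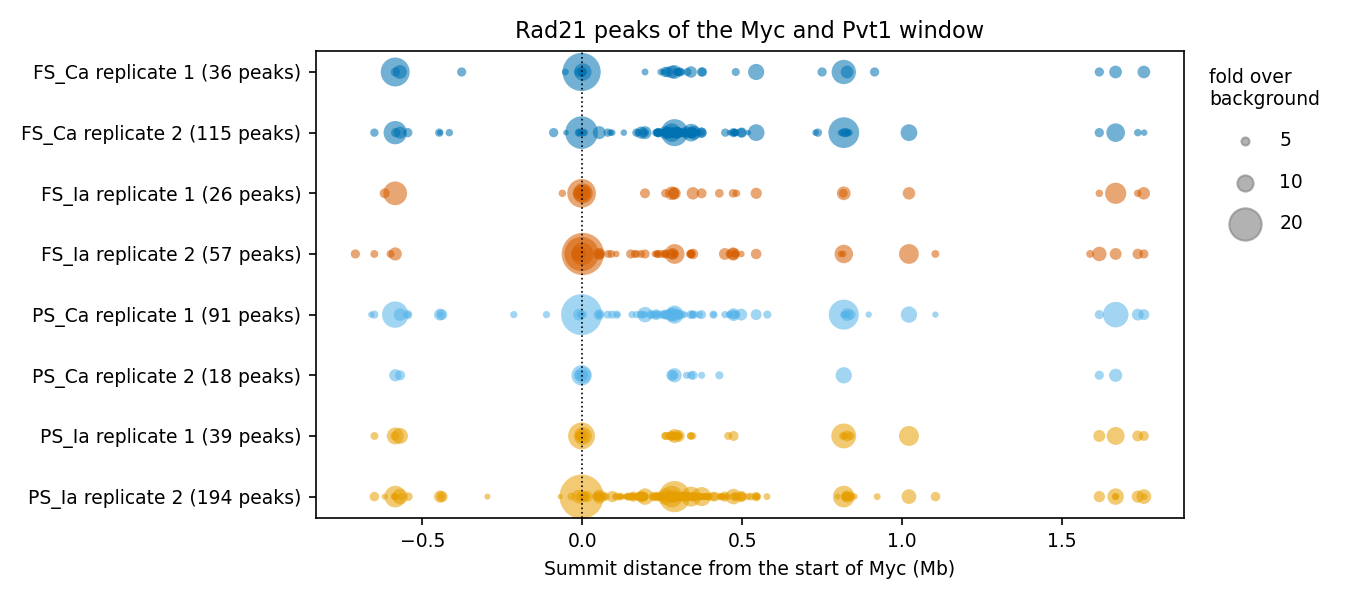
Rad21 peaks of the domain in each library, by distance of the summit from the start of Myc (Mb), with circle area growing with the fold over background. Circles stand above each other at Myc in all 8 libraries, and the dense run of small circles after Myc is fullest in PS_Ia replicate 2 (194 peaks) and nearly empty in PS_Ca replicate 2 (18 peaks).

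The Myc site, at 61812471 to 61821618, spanned the gene and its upstream flank. Its fold was 23.7 and 20.2 in FS_Ca replicates 1 and 2, 17.8 and 26.2 in FS_Ia, 25.4 and 12.6 in PS_Ca, and 16.6 and 27.4 in PS_Ia. The lowest fold was that of PS_Ca replicate 2, the shortest list, and the highest that of PS_Ia replicate 2, the longest. By percentile among the regions held by all libraries the order differed, with PS_Ia replicate 1 weakest (12.1) and FS_Ca replicate 1 strongest (0.815). In fragments the summits were 19 high in PS_Ca replicate 2 (95% Poisson interval 11.4 to 29.7) and 50 in PS_Ia replicate 2 (37.1 to 65.9). These intervals cover counting error only. The site was among the strongest 5.86% of peaks in every list. At its best it was in the strongest 0.174%, in PS_Ia replicate 2.

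The Myc site had more than 1 summit. A summit 1.91 to 2.14 kb before the start of the gene was called in all 8 libraries, within 230 bp of each other, with folds of 12.6 to 27.4. A second summit inside the gene, 1.66 to 1.91 kb after its start, was called in 5 libraries, with folds of 10.1 to 26.2. In FS_Ca replicate 2, PS_Ca replicate 1 and PS_Ia replicate 2, the lists with most peaks, the upstream summit belonged instead to a single broad peak of 5399, 5562 and 9007 bp. These were the widest peaks of the domain in those lists, and they ran over the gene.

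Which of both summits was taller differed in 1 of the 5 libraries that had them apart. In FS_Ca replicate 1 the upstream fold was 23.7 and the inner one 10.8. In FS_Ia replicate 1 they were 17.8 and 12.4. In PS_Ca replicate 2 they were 12.6 and 10.1, and in PS_Ia replicate 1 they were 16.6 and 11.1. FS_Ia replicate 2 had the reverse order, with 21.3 upstream (25 fragments) and 26.2 inside (31 fragments). Its partner FS_Ia replicate 1 did not share that order. The same 5 libraries also had a weaker summit near the start of the gene, between 0.449 kb before and 0.333 kb after it, with folds of 5.74 to 13.9. FS_Ca replicate 1 had a pair of them, of equal fold, at both ends of this range.

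The 3 regions elsewhere in the genome that ranked most like the Myc site over the 8 libraries lay at chromosome 9, 107191169 to 107199195, chromosome 10, 59868650 to 59873539, and chromosome 8, 122701864 to 122704130. Likeness was the mean absolute difference in percentile among the 6747 regions held by all 8 libraries, here 1.82, 2.11 and 2.15 points.

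Around the gene, 15 sites lay within 50 kb of Myc. Apart from the Myc site, 1 of them was held by all 8 libraries, and 11 were held by 1 library, 10 of these by PS_Ia replicate 2. The shared one, at 61806179 to 61808125, lay 10.2 kb upstream and was weak. Its fold was 5.74 and 5.20 in FS_Ca, 6.96 and 8.99 in FS_Ia, 7.34 and 6.30 in PS_Ca, and 4.93 and 8.59 in PS_Ia. A site at 61868886 to 61871795, 48.5 kb after Myc, was held by 4 libraries with folds of 6.77 to 8.59, those of the 4 longest lists. A site 1.65 kb after Myc, at 61823366 to 61823985, was held by FS_Ca replicate 2 and PS_Ia replicate 2, with folds of 4.62 and 5.37.

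Upstream, the site at 61231202 to 61234198, 585 kb before Myc, was the main one. Its fold was 17.9 and 14.4 in FS_Ca, 14.7 and 8.18 in FS_Ia, 16.4 and 7.56 in PS_Ca, and 10.5 and 13.4 in PS_Ia. In fold PS_Ca replicate 2 and FS_Ia replicate 2 were lowest, and summits lay within 286 bp of each other. By percentile among the regions held by all libraries, FS_Ia replicate 2 (73.1) and PS_Ia replicate 1 (50.6) were weakest. The groups overlapped in both measures. Between this site and Myc the lists were sparse. No library had a peak from 214 to 112 kb before Myc, nor from 544 to 447 kb before it.

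Downstream of Myc the domain was crowded. The first 600 kb past the start of the gene held 196 of the 259 sites (75.7%), and the stretch from 200 to 400 kb alone held 102 (39.4%) in 7.69% of the length. The Pvt1 interval, taken as 10 to 300 kb past Myc because gene ends in mm9 were not at hand, held 35.5 sites per 100 kb. The 25 kb of Myc with 10 kb on each side was about as dense, with 32 per 100 kb from 8 sites. The upstream part held 3.72, the part from 300 kb to 1.5 Mb past Myc 9.25 and the part beyond 2.52. The plot of peaks per 100 kb gives these numbers by library.

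**Figure D2:**
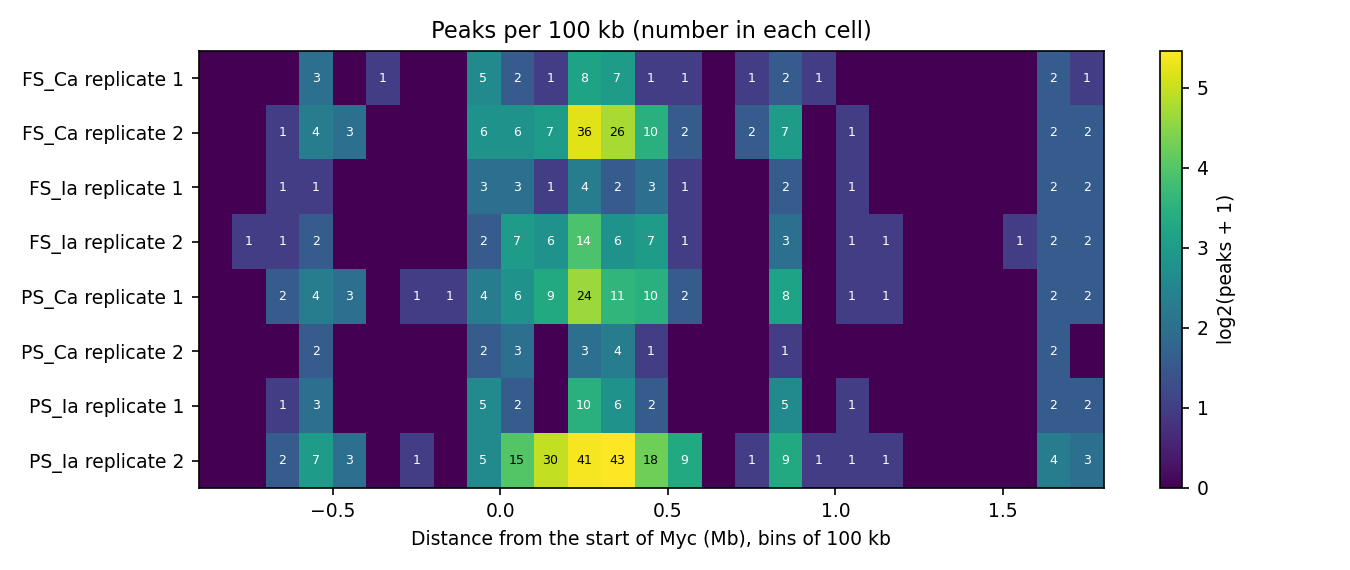
Peaks per 100 kb along the domain (x axis, distance from the start of Myc in Mb) in each library, with the number written in the cell and the colour on a log2 scale. All 8 libraries had peaks in the 2 bins from 200 to 400 kb, from 6 in FS_Ia replicate 1 to 84 in PS_Ia replicate 2, and none had any from 1.2 to 1.5 Mb.

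How full that stretch was differed widely between lists. From 200 to 400 kb past the start of Myc, peaks covered 3.19% and 20.3% of the sequence in FS_Ca, 1.93% and 4.03% in FS_Ia, 9.31% and 1.54% in PS_Ca, and 4.29% and 31.2% in PS_Ia (replicates 1 and 2). Both extremes of coverage came from replicate 2 libraries of PS lines. Of the 102 sites there, 54 (52.9%) were in 1 library and 14 in 4 or more. Whether Rad21 was bound in fewer cells or recovered less well cannot be told apart in such lists.

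Within this crowded stretch 2 sites were held by all 8 libraries. The one at 62101938 to 62107312, 283 kb past Myc, had folds of 8.61 and 16.8 in FS_Ca, 7.74 and 12.3 in FS_Ia, 11.3 and 8.82 in PS_Ca, and 8.63 and 19.3 in PS_Ia. Its neighbour at 62095343 to 62098869, 275 kb past Myc, had 7.89 and 11.6, 8.51 and 6.54, 7.90 and 6.93, and 6.16 and 13.4 in the same order. In both, PS_Ia replicate 2 had the highest fold and FS_Ca replicate 2 the next. Their summits lay within 448 and 315 bp.

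Farther out, the site at 62631935 to 62636051 stood 812 kb past Myc. It ranked second in the domain in 4 libraries. Its fold was 15.1 and 19.1 in FS_Ca, 8.51 and 11.4 in FS_Ia, 18.6 and 10.1 in PS_Ca, and 15.4 and 13.4 in PS_Ia. The site at 62837817 to 62838738, 1016 kb past Myc, is named here after its values were seen. It was missing from FS_Ca replicate 1 and PS_Ca replicate 2 only, its summits in the other 6 lay within 131 bp of each other, and its folds were 7.74 to 12.3.

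Next came the longest empty stretch of the domain, 483 kb without a peak in any list, from 1099 to 1582 kb past Myc. Beyond it lay the last shared sites, in the part where the blood enhancer cluster is placed. The site at 63483450 to 63485438, 1662 kb past Myc, had folds of 7.89 and 11.6 in FS_Ca, 13.2 and 7.36 in FS_Ia, 15.8 and 8.19 in PS_Ca, and 11.1 and 10.2 in PS_Ia. The site at 63432917 to 63433891, 1611 kb past Myc, was weaker, with folds between 4.64 (FS_Ia replicate 1) and 8.99 (FS_Ia replicate 2) and a median of 5.76, but its summits lay within 185 bp of each other. This distal part held 7 sites, of which 3 (42.9%) were in 1 library, against 52.6% of all regions and 60.2% to 75.0% in the other 4 parts. A share of 7 sites is imprecise, and the difference was not tested.

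**Figure D3:**
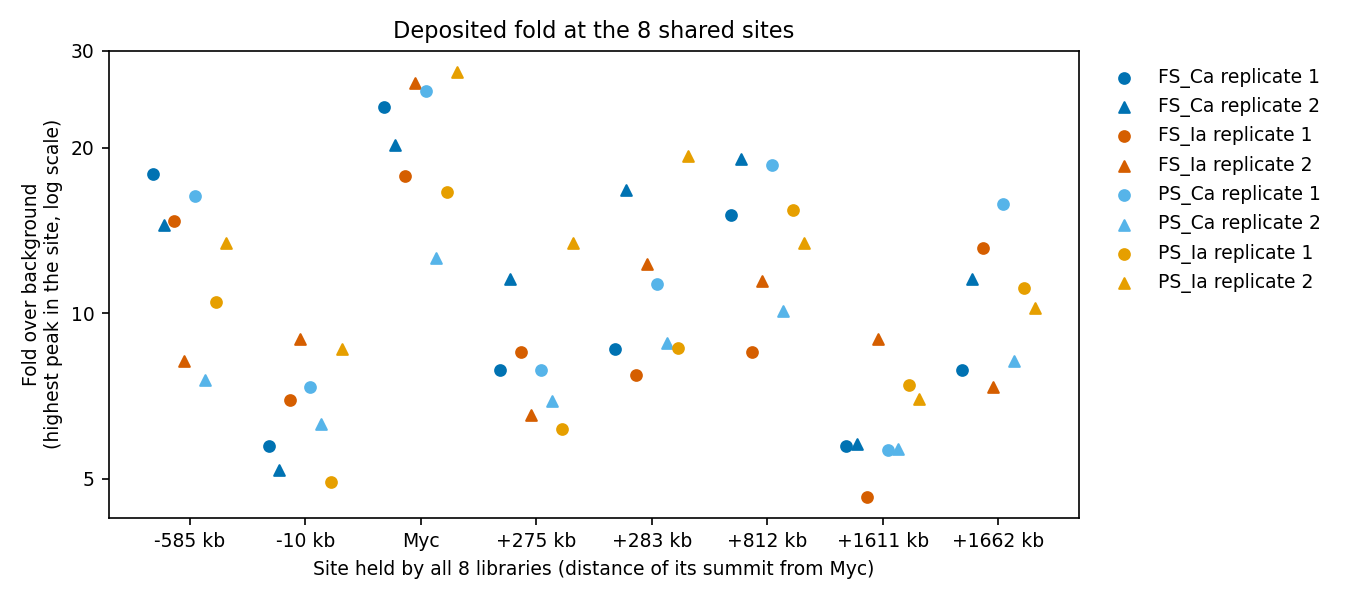
Fold over background (log scale) of the highest peak in each of the 8 sites held by every library, in the order of their distance from Myc, with colours for genotypes and circles and triangles for replicates 1 and 2. The Myc site runs from 12.6 to 27.4, and the sites 10 kb before and 1611 kb after Myc stay below 9.

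Sites held by 4 to 7 libraries numbered 25. Of the 14 held by 5 to 7, PS_Ca replicate 2 lacked 10, FS_Ca replicate 1 and FS_Ia replicate 1 lacked 5 each, and FS_Ia replicate 2 and PS_Ia replicate 1 lacked 4 each. The 3 longest lists lacked 0. The same 3 lists, FS_Ca replicate 2, PS_Ca replicate 1 and PS_Ia replicate 2, were the only holders of 185 sites (71.4%), against 49.0% of all regions. Of the 169 sites in 1 library, 103 (60.9%) came from PS_Ia replicate 2, which also gave 50.5% of the regions in 1 library over the genome, and 0 from PS_Ca replicate 2, which gave 1.63% of those.

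The number of peaks in the domain accordingly followed list length. It was 36 and 115 in FS_Ca, 26 and 57 in FS_Ia, 91 and 18 in PS_Ca, and 39 and 194 in PS_Ia. Over the 8 libraries Pearson's r with list length was 0.976 and Spearman's rho 1 (exact permutation p = 2.48e-05 and 4.96e-05, the smallest that the orders allow, adjusted over 2 relations 4.96e-05 and 9.92e-05). The share of a list that fell in the domain rose as well, from 15.9 peaks per 10000 in PS_Ca replicate 2 to 40.9 in PS_Ia replicate 2 (r = 0.934, exact permutation p = 1.74e-04; rho = 0.976, exact permutation p = 3.97e-04; adjusted the same). Without the shortest and the longest list, r was 0.938 for the number (exact permutation p = 0.00556) and 0.845 for the share (exact permutation p = 0.0208). Within the 4 FS libraries r was 0.934 and 0.847 (exact permutation p = 0.0417 for both). Spearman's rho was 1 for both there (exact permutation p = 0.0833). These p-values are the smallest that the orders of 4 libraries allow. The PS libraries form sets of 2 by peak name, too small for a value.

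Counted as merged regions, to which PS_Ia replicate 2 alone added 103, the domain was rich in sites for its length. Of the 1002 consecutive stretches of 2.6 Mb on the numbered chromosomes and X, 18 (1.80%) held 259 regions or more, and the median was 41. Within single lists the share of stretches that held at least as many peaks as the domain ran from 2.2% in PS_Ia replicate 2 to 18.6% in PS_Ca replicate 2, and was 16% in FS_Ia replicate 1 and 15.9% in PS_Ia replicate 1. For regions held by all 8 libraries the median stretch held 5 and 362 stretches (36.1%) held at least 8. When each list was kept to its strongest 11288 peaks, the number in the domain was 25 and 21 in FS_Ca, 22 and 20 in FS_Ia, 17 and 18 in PS_Ca, and 13 and 20 in PS_Ia. The 3 longest lists (21, 17 and 20) lay within the range of the other 5 there, as the plot of both counts against list length shows.

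**Figure D4:**
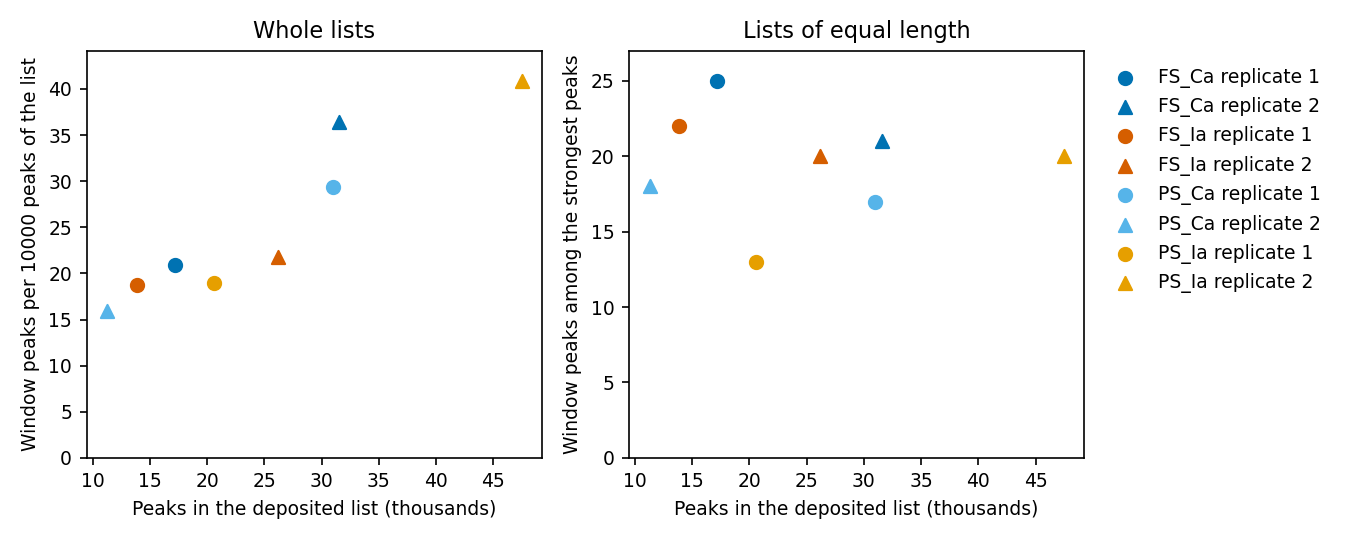
Peaks of the domain per 10000 peaks of the list (left) and among the 11288 strongest peaks of each list (right), against the length of the deposited list (peaks, in units of 1000), 1 point per library. The left values run from 15.9 to 40.9 and rise with list length, whereas the right ones lie between 13 and 25.

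Orientation, Ca against Ia, was compared over all 8 libraries. Ca and Ia lines also differ in the cells they were made in and, among FS lines, in the deleted segment. The effects of these and of orientation cannot be told apart. The domain had 65 ± 45.6 peaks in Ca and 79 ± 77.7 in Ia libraries (SD, n = 4 each). Ia minus Ca was thus 14, less than either SD, and a two-sided exact permutation gave p = 0.771, or 0.943 once adjusted over 8 tests of peak number and rank. The sign turned without PS_Ia replicate 2, where the difference was -24.3, and also without PS_Ca replicate 2, where it was -1.67. By peak name the lists fall into 3 sets, within which Ia minus Ca was -34 peaks (FS), -52 (PS replicate 1) and 176 (PS replicate 2). Per 10000 peaks the means were 25.7 ± 9.08 and 25.1 ± 10.6 (exact permutation p = 0.943), and in lists of equal length 20.3 ± 3.59 and 18.8 ± 3.95 (exact permutation p = 0.629).

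No site of the domain separated the orientations. Only 0.0479% of all regions did, so the 0 among 259 sites is not particular to the domain. Of the 259 sites, 0 were held by all 4 Ca libraries and no Ia library, against 0.0232% of all regions, and 0 the other way, against 0.0247%. The lowest p of any site was 0.429 (Fisher's exact test, two-sided; Benjamini-Hochberg adjusted p = 1), where 0.0286 is the lowest that 4 against 4 libraries allow. At an unadjusted p of 0.05 or less Fisher's test called 0 sites, against 0.0479% of all regions.

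Strength at the shared sites was compared by the percentile of each site among the 6747 regions held by all 8 libraries, a set of the same size in every list. From strongest to weakest the median percentiles were 4.32 at Myc, 19.4 at 812 kb, 29.8 at the site 585 kb upstream, 45.5 at 1662 kb, 52.8 at 283 kb, 64.3 at 275 kb, 85.2 at the site 10.2 kb upstream and 91.3 at 1611 kb. Neighbours in this order overlapped in each of the 7 cases. The Myc site, between 0.815 and 12.1, was stronger in every library than the weakest 2 sites, which lay between 67.4 and 98.8.

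The 812 kb site had the lowest p for orientation among the 8 shared sites. Its percentile was 9.43 and 6.96 in FS_Ca, 56.8 and 50.8 in FS_Ia, 14.3 and 21.9 in PS_Ca, and 16.9 and 35.2 in PS_Ia. The means were 13.2 ± 6.60 in Ca and 39.9 ± 17.8 in Ia libraries (SD, n = 4 each), so that Ia ranked 26.7 points weaker, and the groups overlapped only through PS_Ia replicate 1 and PS_Ca replicate 2. The exact permutation p was 0.0571 and the adjusted p over all shared regions 1. The lowest p that 4 against 4 libraries allow, 0.0286, was reached by 2.71% of shared regions. That is too few for an adjusted p of 0.05 in any region, so the adjusted value cannot decide. Split by the 3 sets of peak names, the same values had Ia weaker in each, in the PS replicate 1 set only by 14.3 against 16.9. The split adds no evidence beyond these values. Leaving out either library that made the overlap removes it by construction, which is no further evidence of a difference. Without PS_Ca replicate 2 the ranges were 5.54 to 11.4 in Ca and 13.8 to 49.1 in Ia. Without PS_Ia replicate 1 they were 6.73 to 21.4 and 34.1 to 55.5. The share of all shared regions without overlap in those settings was not worked out. With all libraries, 0 of the 8 sites had ranks without overlap between the orientations, against 2.71% of shared regions. Permutation called 0 of the 8 at an unadjusted p of 0.05 or less.

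At Myc itself the difference in rank was smaller than the spread. The mean percentile was 4.33 ± 3.51 in Ca and 5.57 ± 4.69 in Ia libraries (exact permutation p = 0.657, adjusted p = 1). The site 585 kb upstream had 25.6 ± 19.1 in Ca and 42.2 ± 26.5 in Ia libraries (exact permutation p = 0.343, adjusted p = 1). At the 5 other shared sites Ia minus Ca was -7.99 points or closer to 0, with exact permutation p of 0.371 or more.

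**Figure D5:**
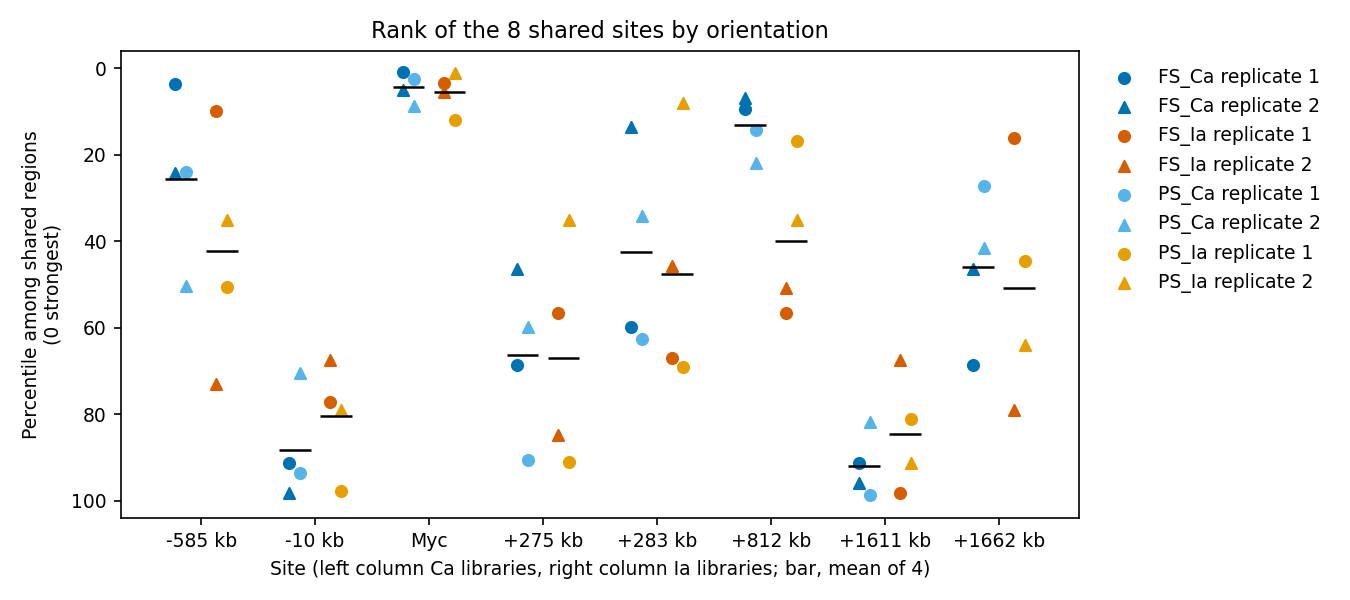
Percentile of the 8 shared sites among the regions held by all 8 libraries (0 is the strongest, at the top), with Ca libraries left and Ia libraries right at each site and bars for the means of 4. At 812 kb the Ca libraries lie between 6.96 and 21.9 and the Ia libraries between 16.9 and 56.8.

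Switch length, FS against PS, gave 58.5 ± 39.8 peaks in FS and 85.5 ± 78.6 in PS libraries (SD, n = 4 each). PS minus FS was 27 (two-sided exact permutation, p = 0.657, adjusted p = 0.943). Without PS_Ia replicate 2 it was -9.17. In lists of equal length FS had 22 ± 2.16 and PS 17 ± 2.94, a difference of -5 (exact permutation p = 0.0571, adjusted p = 0.457), with the groups touching at 20. The sets of peak names hold FS or PS libraries, never both, so that the effect of one and of the other cannot be told apart.

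No site separated the switch lengths either, and only 0.0479% of all regions did, so this too is not particular to the domain. Of the 259 sites, 0 were held by all 4 FS and no PS library, against 0.00772% of all regions, and 0 the other way, against 0.0401%. The lowest p was 0.143 (Fisher's exact test, adjusted p = 1), and 0 sites passed an unadjusted p of 0.05. In lists of equal length 1 site was FS-only, at 62360326 to 62361607, 539 kb past Myc, with folds of 6.54 to 10.4. The share of all regions that were FS-only in such lists was not worked out. The full lists of PS_Ca replicate 1 and PS_Ia replicate 2 held a peak there too. Among the shared sites the lowest p was that of the Myc site, with 3.72 ± 2.10 in FS and 6.18 ± 5.19 in PS libraries (exact permutation p = 0.429, adjusted p = 0.977), and 0 of 8 sites had ranks without overlap, against 2.89% of shared regions.

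Between single genotypes, an exact permutation of 2 libraries against 2 cannot reach a p of 0.05, so no test was run and the values are a description. FS_Ca had 23 sites in both of its libraries, FS_Ia 16, PS_Ca 12 and PS_Ia 22. They were 22.8%, 32.7%, 14.6% and 11.7% of all sites found in the genotype, and the same shares over the genome were 43.1%, 42.7%, 33.6% and 33.4%. In each genotype the share was smaller in the domain than in the whole genome, a description with no test. FS_Ca and FS_Ia shared 12 such sites (52.2% and 75.0% of each), PS_Ca and PS_Ia 10 (83.3% and 45.5%), FS_Ca and PS_Ca 11 (47.8% and 91.7%), and FS_Ia and PS_Ia 13 (81.3% and 59.1%).

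Sites in both libraries of one genotype and neither of the other leaned to the genotype with more peaks in the domain. All regions of the genome leaned the same way in each pair, so the lean is not particular to the domain. For PS_Ia against PS_Ca and against FS_Ia, the share in the domain was below that of all regions. FS_Ca had 9 (3.47% of sites, against 1.78% of all regions) that FS_Ia lacked, and FS_Ia had 0 (against 0.477%) the other way. PS_Ia had 1 (0.386%, against 1.75%) that PS_Ca lacked, and PS_Ca 0 (against 0.571%). FS_Ca had 4 (1.54%, against 0.692%) that PS_Ca lacked, with 0 the other way (against 0.526%). PS_Ia had 7 (2.70%, against 4.04%) that FS_Ia lacked, with 0 the other way (against 0.279%). The only site held by both libraries of 1 genotype and no other library was at 62296745 to 62297053, 475 kb past Myc, in FS_Ca. It was weak, with folds of 5.02 and 4.62 and summits of 6 and 7 fragments, and 0.116% of all regions had that pattern. The other genotypes had 0 such sites, against 0.0587% of all regions for FS_Ia, 0.181% for PS_Ca and 0.627% for PS_Ia.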

How the data were processed

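Rad21 ChIP-seq of 8 libraries was analysed from the peak list that the authors deposited for each. Per the submitters' processing notes, the build was mm9 and the tools included MACS2 2.2.7.1, deepTools 3.5.1, SAMtools 1.15.1 and Bowtie2 2.4.4. Settings, peak threshold, read filters and use of a control were not given in the sources used here. Per peak, the deposited lists give a fold enrichment (a ratio over background), −log10 p and −log10 q, a score, which was not used, and the summit. The members, the lists and the tests were chosen with earlier results of these data known. Gene ends in mm9 and sequences of the sites were not used here.

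Fold values were whole multiples of 1 step per list within 0.05 (100% of peaks), which gave the background (0.223 to 0.862 fragments) and the summit height if the fold is (height + 1)/(background + 1), a form assumed here. Depth is known only through these. Peaks were merged by 1 bp overlap with Python 3.11.15, numpy 2.4.6, pandas 2.3.3 and scipy 1.17.1, and plotted with matplotlib 3.10.9. The highest peak of a library in a region gave its fold. Named were sites held by all 8 libraries, strongest in a library, separating a factor, or held by both libraries of 1 genotype alone. Sites within 50 kb of Myc were named if more than 1 library held them, and otherwise counted. The 3 regions most like the Myc site were named too. Presence was tested with Fisher's exact test over all 64772 regions. Peak numbers and percentiles were tested by exact permutation of 4 against 4 libraries (70 assignments), the latter adjusted over the 6747 shared regions. The lowest p of the presence and percentile tests is 0.0286. Too few regions reached it for any adjusted p of 0.05, so these adjusted values cannot decide. The scripts were tested on simulated data. Alternatives were −log10 q of at least 5, lists of equal length, summits widened by 100 bp, peaks up to 1000 bp apart merged, ranks by −log10 p, scaling per 10000 peaks, permutation within replicate numbers and each library left out. The sets of peak names and leaving out the 2 shortest lists were added after seeing the data.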

Additional observations from a re-analysis of the deposited data

Results flagged for a closer look

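Per 10000 peaks, PS_Ia replicate 2 had 40.9 peaks in the Myc and Pvt1 domain, far above the 18.8 to 21.8 of the other 3 Ia libraries. FS_Ca replicate 2 had 36.5, far above the 18.8 to 21.8 of the other 3 FS libraries. Both are the longest lists of their group. Chance gives about 1 in 20 groups such a value, and 2 of the 44 groups looked at had one.

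The site at 62115991 to 62117123, 294 kb past Myc, went opposite ways with orientation in FS and PS lines: it was held by both FS_Ca and both PS_Ia libraries and by no FS_Ia or PS_Ca library, 2 libraries against 0 in each case. Its folds were 5.02, 6.35, 4.93 and 5.37 in the libraries that held it, with summits of 6 to 10 fragments, and the difference was not tested. The site was picked for this pattern among all sites of the domain. The share of all regions with the pattern was not worked out, so whether it is unusual is not known.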

How the results depend on the processing

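The number of sites was 84 at −log10 q of at least 5, 43 in lists of equal length and 138 when peaks up to 1000 bp apart were merged, where fewer peaks or wider regions lower it by construction. Sites held by every library numbered 5 in lists of equal length and 11 without the 2 shortest lists. Leaving out each library in turn gave 180 to 259 sites and 8 to 10 held by all. Ia minus Ca in peak number turned to -1.5 in lists of equal length, -0.57 per 10000 peaks, -52 within the PS replicate 1 set and -34 within the FS set, and ranged from -24.3 to 31.7 with 1 library left out. PS minus FS turned to -5 in lists of equal length and ranged from -9.17 to 49.5 with 1 library left out. The cause was not tested. Sites that separated FS from PS numbered 1 in lists of equal length and 0 to 1 with 1 library left out (without PS_Ca replicate 2, at 62655501 to 62656791, in the 3 other PS libraries). Shared sites whose ranks did not overlap between Ca and Ia numbered 0 to 1 with 1 library left out. For these counts of separating and non-overlapping sites, the shares of all regions were not worked out. At −log10 q of at least 5 the 2 differences were 2.75 and 3.75, and within the PS replicate 2 set Ia minus Ca was 176. No alternative brought a peak number comparison to p of 0.05. With a replicate block (permutation within a replicate number), p was 0.778 for orientation and 0.556 for switch length, for differences of 14 and 27, so no call changed. Deviations of libraries with the same number correlated between genotypes at -0.202 to 0.325 over 6747 regions, and the numbers were not taken as pairs. Summits of 3 to 5 fragments in the weakest peaks limit what a missing peak shows.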
